A study of Mus musculus with 6 samples.

Results

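The mitochondrial ribosomal protein genes were taken as every protein-coding gene of the count table whose symbol begins with Mrpl or Mrps followed by a digit. This gave 78 of 55573 genes. Their transcript levels were measured by RNA sequencing in 6 libraries made from lung. All mice were wild type, of strain C57BL/6 and 9 to 10 weeks old. The 3 CS libraries are from mice that breathed cigarette smoke for 75 min, 2 times daily, with 5 exposure days weekly over 4 weeks. The 3 SS-31H_CS libraries are from smoke-exposed mice that were also given SS-31 at 5 mg/kg once a day. The labels state the smoke schedule for the CS group alone. Both groups carried the smoke exposure, and no smoke-free or SS-31-only lungs were analysed here. The labels do not tie each library to a mouse of its own, so every p-value below measures the spread between libraries.

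Mitochondria carry their own ribosome, the mitoribosome, which translates the few messengers of mitochondrial DNA into membrane subunits of the respiratory chain and ATP synthase. Its ribosomal RNAs are transcribed inside the organelle, whereas all of its proteins are encoded in the nucleus, made in the cytosol and imported. Some of these proteins have a counterpart in the bacterial ribosome, and others were added during the evolution of mitochondria. SS-31, also called elamipretide, is a small peptide that reaches mitochondria and binds cardiolipin, a lipid of the inner membrane. The comparison asks whether giving SS-31 during smoke exposure was accompanied by a change in the nuclear genes of this machine.

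No mitoribosomal protein gene passed the test in either direction. Of the 76 tested, 0 were higher and 0 lower with SS-31 at an adjusted p under 0.05. The test was the quasi-likelihood test of edgeR, with p-values adjusted by the Benjamini-Hochberg method over all 16965 genes tested. Among those, 26 genes (0.153%) passed, 0.0707% higher and 0.0825% lower. The median log2 fold change, SS-31H_CS over CS, was -0.03 over the 76 genes and 0.01 over all genes tested. The fold changes ran from -0.57 (Mrps18b) to 0.43 (Mrps35), with quartiles of -0.12 and 0.13, and 33 of the 76 were positive. Without adjustment, 5 mitoribosomal genes were on the higher side and 1 on the lower side at p under 0.05. Over all genes 18.2% met that cut, 9.93% higher and 8.23% lower, so the 7.89% among the mitoribosomal genes was below the background. Counts of 0 passing genes were also given by DESeq2 and limma voom, with 4 and 5 genes at an unadjusted p under 0.05.

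The spread of these genes set narrow limits on the differences. The 95% interval of the fold change lay within 1.5-fold in either direction for 61 of the 76 genes (80.3%), against 41.9% of all genes tested. It lay within 2-fold for 75 of 76, against 70.2%. The exception was Mrps18b, whose interval reached -1.03 on the log2 scale. The median standard error was 0.14 among the mitoribosomal genes and 0.18 over all genes. Over 9888 other tested protein-coding genes within the same range of mean level, the 2 shares were 47.3% and 78.4%. The median standard error of those genes was 0.17. In whole lung, fewer cells of a type and less RNA per cell cannot be told apart.

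**Figure D1:**
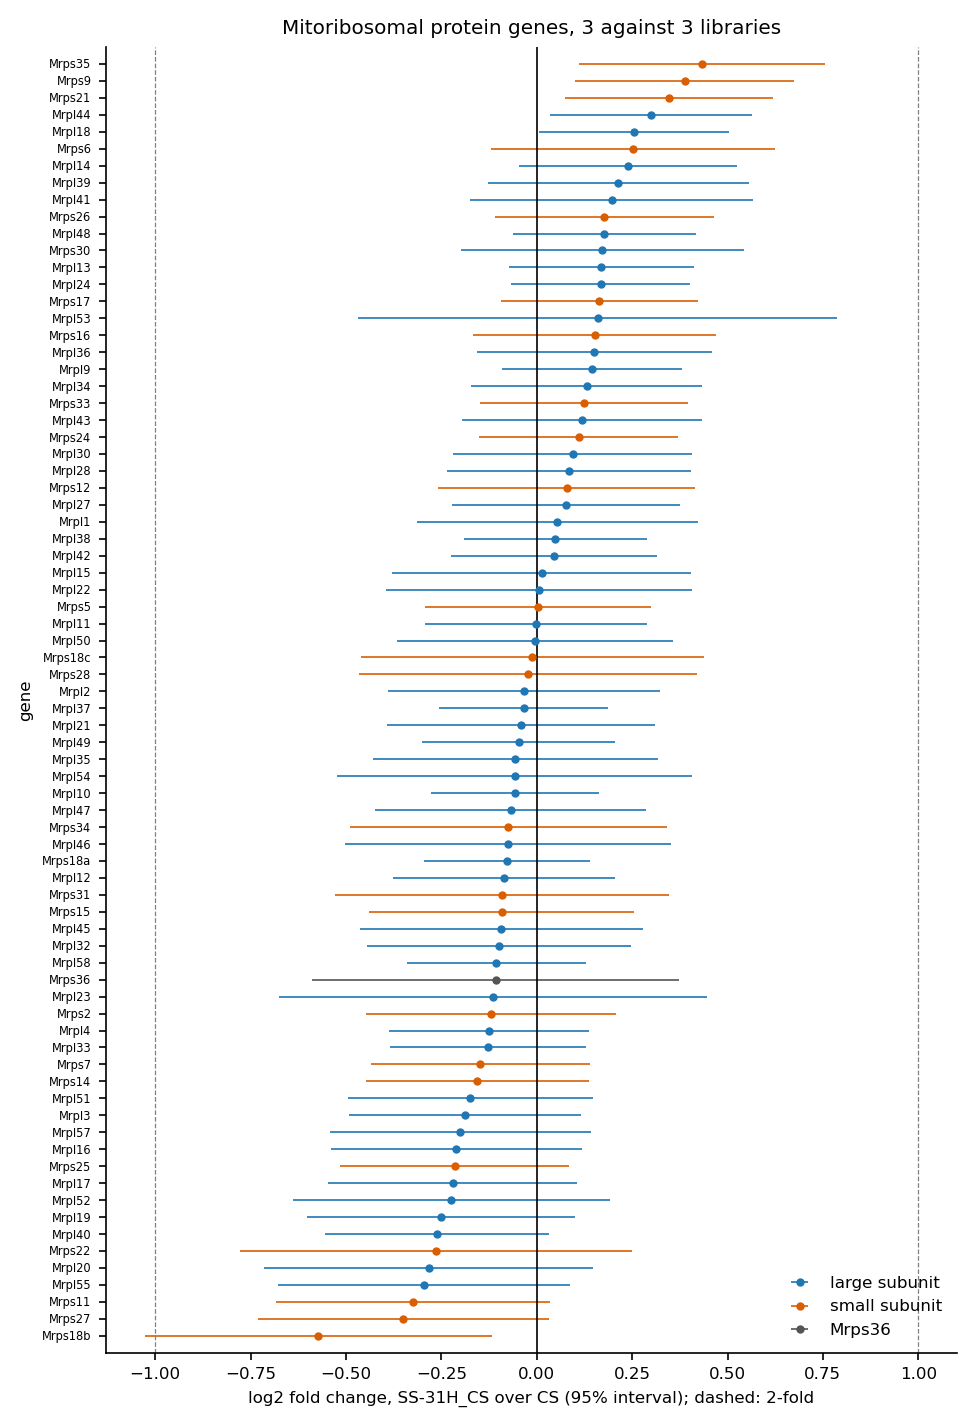
Each point is the log2 fold change (SS-31H_CS over CS, x axis) of one of 76 mitoribosomal protein genes (y axis, ordered by value), with its 95% interval from edgeR and colours for the subunit. Mrps35 at 0.43 and Mrps18b at -0.57 are the ends, and no interval other than that of Mrps18b crosses a dashed line at 2-fold.

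The 2 subunits gave similar summaries. The large subunit was represented by 51 genes, all tested, counting Mrps30 and Mrps18a, whose products sit in the large subunit despite their names. Its median log2 fold change was -0.03, with a range of -0.30 to 0.30. The small subunit had 24 tested genes of 26, a median of -0.02 and a range of -0.57 to 0.43. Mrps36 was kept apart, since its product is known as a component of the 2-oxoglutarate dehydrogenase complex, and its log2 fold change was -0.11 (SE 0.21). Genes with a bacterial counterpart were taken from a list fixed by symbol. It counted Mrpl55 and Mrps18c in, but not Mrps18a or Mrps18b, which are also relatives of bacterial S18. The median was -0.01 over the 45 tested genes of that list and -0.05 over the 30 outside it, Mrps36 left out. No difference between these subgroups was tested.

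The promoters are shown because they hold a feature that the choice of genes did not use. RefSeq promoters (GRCm38.p6), from 250 bases before to 50 bases after each start, were found for 69 of the 78 genes. Nuclear respiratory factor 1 (NRF1), the ETS family factor GABP and YY1 are known activators of nuclear genes for mitochondrial proteins. The letters CGCANGCG (NRF1 core), CCGGAAG (ETS) and AAGATGGCG (YY1) were searched on both strands. The 120 bases before the start follow for 7 genes whose values are given below, 5′ to 3′ on the strand of the gene. Capitals mark an NRF1 core in the first 3 sequences, an ETS match in the next 3 and a YY1 match in the last.
Mrps21 (chr3:95871515-95871634, minus strand): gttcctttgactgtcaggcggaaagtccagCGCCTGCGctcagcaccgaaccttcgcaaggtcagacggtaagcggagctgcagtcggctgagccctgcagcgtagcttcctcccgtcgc
Mrpl44 (chr1:79775898-79776017, plus strand): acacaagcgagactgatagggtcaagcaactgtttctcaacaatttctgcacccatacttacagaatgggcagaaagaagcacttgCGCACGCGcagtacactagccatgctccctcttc
Mrpl12 (chr11:120484517-120484636, plus strand): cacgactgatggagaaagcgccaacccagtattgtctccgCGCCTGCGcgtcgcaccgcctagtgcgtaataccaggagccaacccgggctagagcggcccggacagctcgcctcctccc
Mrps22 (chr9:98601680-98601799, minus strand): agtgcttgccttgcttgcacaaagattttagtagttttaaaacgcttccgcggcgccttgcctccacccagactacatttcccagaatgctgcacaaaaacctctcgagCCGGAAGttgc
Mrps18a (chr17:46110884-46111003, plus strand): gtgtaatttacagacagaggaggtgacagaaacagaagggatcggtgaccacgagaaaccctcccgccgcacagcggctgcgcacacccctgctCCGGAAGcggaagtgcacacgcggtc
Mrpl52 (chr14:54426789-54426908, plus strand): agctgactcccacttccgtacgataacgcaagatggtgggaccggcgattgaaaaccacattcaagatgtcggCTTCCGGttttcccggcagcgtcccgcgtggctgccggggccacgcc
Mrps11 (chr7:78783011-78783130, plus strand): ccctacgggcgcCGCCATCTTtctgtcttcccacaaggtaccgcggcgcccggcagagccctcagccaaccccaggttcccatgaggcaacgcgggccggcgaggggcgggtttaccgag

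Of the 69 genes with a promoter, 44 (63.8%) held at least one match to the NRF1, ETS or YY1 letters. The share was 18.3% over all promoters of the same length and 33.6% over tested protein-coding genes. It was near that of the mitoribosomal genes in cytosolic ribosomal protein genes (59.1%) and complex I genes (56.2%). The ETS letters stood in 37.7% of the mitoribosomal genes and 18.1% of tested protein-coding genes, the NRF1 core in 29.0% and 17.6%, and the YY1 letters in 11.6% and 3.16%. The GC box (GGGCGG) was found in 49.3% against 65.4%, and the E-box (CACGTG) in 7.25% against 11.1%. By subunit, the GC box stood in 37.8% of large-subunit genes and 69.6% of small-subunit genes, a difference that was not tested. Genes for cytosolic ribosomal proteins had a near ETS share (39.4%), and complex I genes a near NRF1 share (31.2%) with fewer ETS matches (12.5%). The YY1 letters stood in 15.6% of complex I genes and 6.06% of cytosolic ribosomal protein genes. The sequence of Mrps11 covers the start of Mrpl46 as well, since both genes are transcribed outward from a common stretch. These shares describe letters, and a match is not a shown binding site.

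Genes that start close to another gene on the opposite strand were common among them. Another protein-coding gene on the opposite strand began within 1000 bases of the start of 33 of the 78 genes (42.3%), against 14.6% of tested protein-coding genes. The starts lay apart in some pairs, and in others, such as Mrpl14 with Tmem63b, the 2 genes overlapped at their starts. None of the 31 tested partner genes passed the test, and 5 (16.1%) had an unadjusted p under 0.05, against 18.2% of all genes. In 1 of these 5 pairs the log2 fold changes had the same sign, with Ppp1r10, a regulatory subunit gene of protein phosphatase 1, at -0.34 (SE 0.12) beside Mrps18b at -0.57. In the other pairs the signs were opposite. Lrrc46 gave 1.23 beside Mrpl10 at -0.06, and Tmem63b gave -0.36 beside Mrpl14 at 0.24. Pnpla7 gave -0.35 beside Mrpl41 at 0.20, and the complex I gene Ndufb5 gave 0.27 beside Mrpl47 at -0.07.

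The small subunit held the members farthest from 0. Mrps9 encodes the counterpart of bacterial ribosomal protein S9, in the head of the small subunit (ENSMUSG00000060679, GRCm38 chromosome 1, 42851233 to 42905683). It stood at 31.6, 32.3 and 26.0 CPM (counts scaled by TMM to a common library size) in CS replicates 1, 2 and 3, and at 37.7, 37.0 and 43.0 CPM with SS-31. All 3 SS-31H_CS libraries were above all 3 CS libraries. The log2 fold change was 0.39 (SE 0.12), with a Benjamini-Hochberg adjusted p of 0.18 in the quasi-likelihood test of edgeR. Mrps35, one of the proteins without a bacterial counterpart (chromosome 6, 147042764 to 147073991), was at 21.1, 18.1 and 15.9 CPM in CS and at 23.2, 26.1 and 25.1 CPM with SS-31. These groups did not overlap either, and the log2 fold change was 0.43 (SE 0.14). Mrps21, the counterpart of bacterial S21 (chromosome 3, 95862634 to 95871519), had 29.7, 23.5 and 26.2 CPM in CS and 34.6, 33.9 and 32.5 CPM with SS-31. Its SS-31H_CS libraries lay close together and above the CS libraries, at a log2 fold change of 0.35 (SE 0.12).

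Mrps18b, one of 3 mammalian relatives of bacterial S18 (chromosome 17, 35910379 to 35916389), had the lowest fold change. Its levels were 10.7, 13.6 and 16.5 CPM in CS and 8.45, 8.74 and 10.2 CPM with SS-31. Every CS library was above every SS-31H_CS library, and the CS libraries were spread more widely than the others. The log2 fold change was -0.57 (SE 0.20, adjusted p = 0.199 by edgeR's quasi-likelihood test). The 3 relatives had different values, with -0.57 for Mrps18b, -0.08 for Mrps18a and -0.01 for Mrps18c. An antisense gene, Gm16279, overlaps 30.5% of the exonic bases of Mrps18b, and without a stated strand setting the reads there cannot be told apart.

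Other small-subunit genes on the lower side did not reach an unadjusted p under 0.05. Mrps27, which belongs to the pentatricopeptide repeat family, ranged from 16.7 to 23.0 CPM in CS and from 13.9 to 15.7 CPM with SS-31 (log2 fold change -0.35, SE 0.17). Mrps11, the counterpart of S11, was at 17.3, 15.3 and 20.7 CPM in CS and 13.9, 13.6 and 15.1 CPM with SS-31 (-0.32, SE 0.16). In both, CS replicate 3 was the highest library and the groups did not overlap. Mrps25 gave -0.21 (SE 0.13), but 69.8% of its exonic bases lie under Nr2c2 on the other strand. Mrps12, the counterpart of S12 at the decoding centre, gave 0.08 (SE 0.15), and Mrps7, the counterpart of S7, gave -0.15 (SE 0.12). Mrps34 gave -0.07 (SE 0.18), with 77.8% of its exonic bases shared with Mapk8ip3 or Nme3, and Mrps22 gave -0.26 (SE 0.22).

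**Figure D2:**
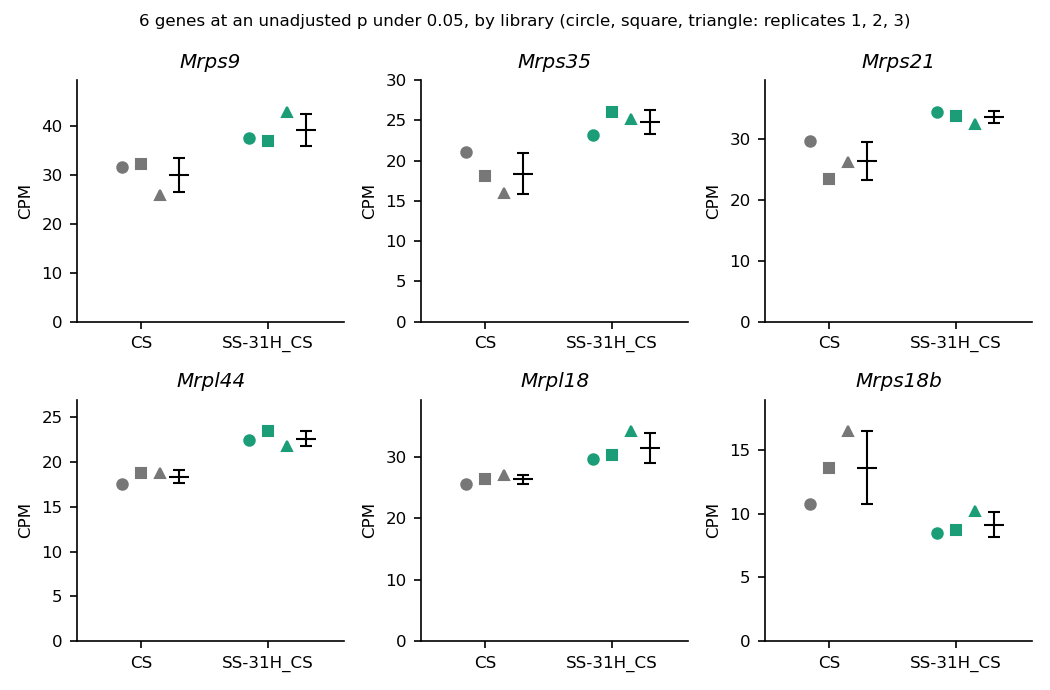
Each panel shows one gene at an unadjusted p under 0.05, with CPM on the y axis from 0 and the 2 groups on the x axis. Symbols are single libraries and the bars are the mean ± SD (n = 3), and in each panel the groups do not overlap, with Mrps18b lower and the other 5 genes higher with SS-31.

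Among the large-subunit genes, Mrpl44 and Mrpl18 had an unadjusted p under 0.05. Mrpl44, a protein with a ribonuclease III-like fold (chromosome 1, 79776018 to 79781445), was at 17.5, 18.7 and 18.8 CPM in CS and 22.5, 23.5 and 21.8 CPM with SS-31. Its libraries differed little within a group, with a within-group SD of 0.05 on the log2 scale, and its log2 fold change was 0.30 (SE 0.12). Mrpl18, the counterpart of L18 and an import factor for 5S ribosomal RNA (chromosome 17, 12911349 to 12916345), was at 25.5, 26.4 and 27.0 CPM in CS. With SS-31 it was at 29.6, 30.3 and 34.2 CPM, a log2 fold change of 0.25 (SE 0.11). Both genes had groups that did not overlap.

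The stalk of the large subunit, where translation factors dock, is built on Mrpl10, Mrpl11 and Mrpl12, and Mrpl12 has also been described as a partner of the mitochondrial RNA polymerase. Mrpl12 was at 39.5, 37.9 and 48.0 CPM in CS and 41.6, 35.6 and 41.0 CPM with SS-31. Mrpl10 was at 40.6, 39.8 and 44.1 CPM in CS and 40.8, 39.0 and 39.9 CPM with SS-31. Mrpl11 had a mean of 19.2 CPM in both groups, with SDs of 1.28 and 1.31 (n = 3 per group). The groups overlapped for all 3 genes, and their log2 fold changes were -0.09 (SE 0.13), -0.06 (SE 0.10) and 0.00 (SE 0.13).

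Mrpl58, a peptidyl-tRNA hydrolase that frees stalled ribosomes and is also built into the large subunit, gave -0.11 (SE 0.10). Mrpl14, the counterpart of L14 at the face between the subunits, gave 0.24 (SE 0.12), and Mrpl24 gave 0.17 (SE 0.10). On the lower side Mrpl55 gave -0.30 (SE 0.17), Mrpl20 -0.28 (SE 0.19), Mrpl40 -0.26 (SE 0.13) and Mrpl19 -0.25 (SE 0.15). Mrps30 gave 0.17 (SE 0.16). Mrps18a had the smallest spread of all, between 31.7 and 35.0 CPM over the 6 libraries, and a log2 fold change of -0.08 (SE 0.09). The largest within-group spreads were those of Mrpl54, Mrpl20 and Mrps22, each with an SD of 0.28 on the log2 scale, against a median of 0.15 over the 76 genes and 0.22 over all genes. In Mrpl54 (17.5, 14.2 and 24.3 CPM in CS; 17.3, 19.3 and 17.1 CPM with SS-31) and Mrpl20 (33.9, 34.9 and 53.0 CPM; 37.5, 32.6 and 30.0 CPM), CS replicate 3 was far above the rest.

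In all, the groups did not overlap in 18 of the 76 genes (23.7%), 9 higher and 9 lower. Over all genes tested they did not overlap in 26.1%, 13.6% higher and 12.4% lower, a share close to that of the mitoribosomal genes.

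One library stood apart for these genes. CS replicate 3 was the highest of the 6 libraries for 41 of the 76 genes (53.9%), against 27.5% of all genes tested, and the lowest for 6 (7.89%), against 28.7%. The other CS libraries were the highest for 2 and 3 genes, and the SS-31H_CS libraries for 9, 9 and 12. The summed level of the 78 genes was 1887, 1805 and 2124 CPM in CS and 1950, 1925 and 1949 CPM with SS-31. The SS-31H_CS libraries lay within the range of the CS libraries, whose SD was 166 CPM against 14.4 CPM. Without CS replicate 3, 51 of 76 genes had a positive fold change in place of 33, the median turned from -0.03 to 0.06, and still 0 genes passed. CS replicate 3 was the lowest library for Mrps9 and Mrps35 and the highest for Mrps18b. With any 1 library left out, their log2 fold changes ran from 0.29 to 0.44, 0.34 to 0.54 and -0.72 to -0.42. Without CS replicate 3 the log2 fold change was -0.05 for Mrpl20, -0.05 for Mrps22, -0.02 for Mrpl52, -0.19 for Mrps27 and -0.20 for Mrps11. Complex I genes, taken by symbol as nuclear genes of another mitochondrial machine, were highest in the same library for 17 of 36.

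Over all genes CS replicate 3 was also at one end of the first principal component (46.4% of the variance), at -61.3. The other CS libraries were at -14.4 and -7.19. The SS-31H_CS libraries were at 12.5, 25.6 and 44.8, so the groups did not overlap on this component. In CS replicate 3 the markers of B and plasma cells, T and NK cells and erythroid cells were the lowest of the 6 libraries. Their median log2 deviations from each gene's mean were -1.71, -1.28 and -1.80. The part of these differences in the mitoribosomal values was not tested.

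**Figure D3:**
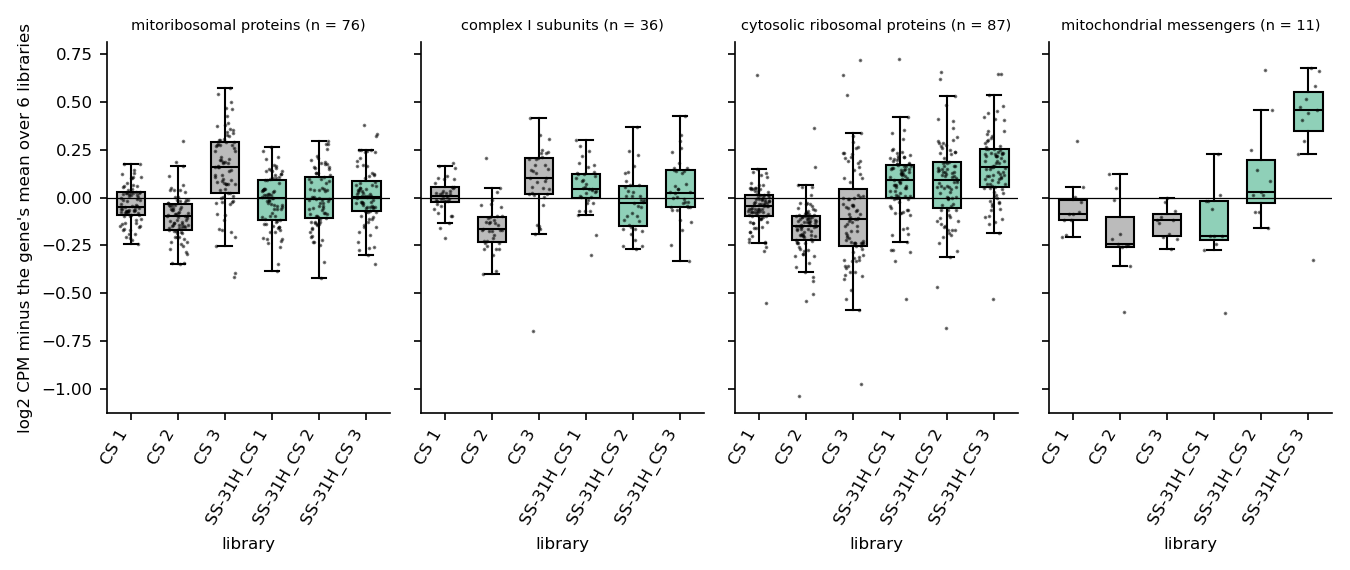
The y axis gives each gene's log2 CPM minus its mean over 6 libraries (x axis), with points for genes, boxes for quartiles and medians and whiskers to 1.5 times the box. The mitoribosomal genes have a median of 0.16 in CS replicate 3, against -0.05 and -0.10 in the other CS libraries and values from -0.01 to 0.00 with SS-31.

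Levels between genes were compared per length, by the deposited FPKM. Over the 76 genes the mean FPKM ran from 0.965 (Mrpl23) to 40.7 (Mrps21), a 42.2-fold range, with quartiles of 4.65 and 17.7 and a median of 8.92. Large-subunit genes had a median FPKM of 9.51 and small-subunit genes one of 7.41. Next to Mrps21 came Mrpl14 at 40.5, Mrpl52 at 39.9 and Mrpl24 at 31.5. Next to Mrpl23 came Mrps22 at 2.18, Mrpl19 at 2.36 and Mrpl53 at 2.39. Mrpl19 and Mrpl53 are among the genes that share exonic bases with other genes, as given below. The part of this overlap in their low values was not tested. Mrps21, Mrpl14 and Mrpl52 had means ± SD of 35.1 ± 3.98, 36.4 ± 3.89 and 42.2 ± 9.00 FPKM in CS (n = 3), within their spread of each other. With SS-31 the means were 46.4 ± 2.02, 44.6 ± 4.23 and 37.7 ± 4.82 FPKM (n = 3), and the libraries of Mrps21 (44.2 to 48.1 FPKM) lay above those of Mrpl52 (32.1 to 40.6 FPKM). Mrpl52, near the top of the order, and Mrps22, near the bottom, both held ETS letters in the sequences above.

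The order depended on the length used. The deposited FPKM matched the merged length of all annotated exons within 0.1% for 76 of 76 genes, and a long merged length lowers FPKM where the main transcript is short. With the length of the principal isoform in its place, the median was 14.7 and the range 2.57 to 106. Mrpl33, whose merged exons cover 7326 bases and whose principal isoform has 478, moved from rank 58 to rank 2. Mrpl42 moved from rank 41 to 8 and Mrps18a from 38 to 10. At the top, Mrpl52 moved from rank 3 to 1 (106) and Mrps21 from rank 1 to 3 (61.7). At the low end, Mrpl23 moved from rank 76 to 63 and Mrps22 from 75 to 61, and Mrpl19 became the lowest at 2.57. Mrpl33 and Mrpl42 were picked for this after their values were seen. The ratio of the upper to the lower quartile was 3.82 with the merged and 3.74 with the principal length.

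**Figure D4:**
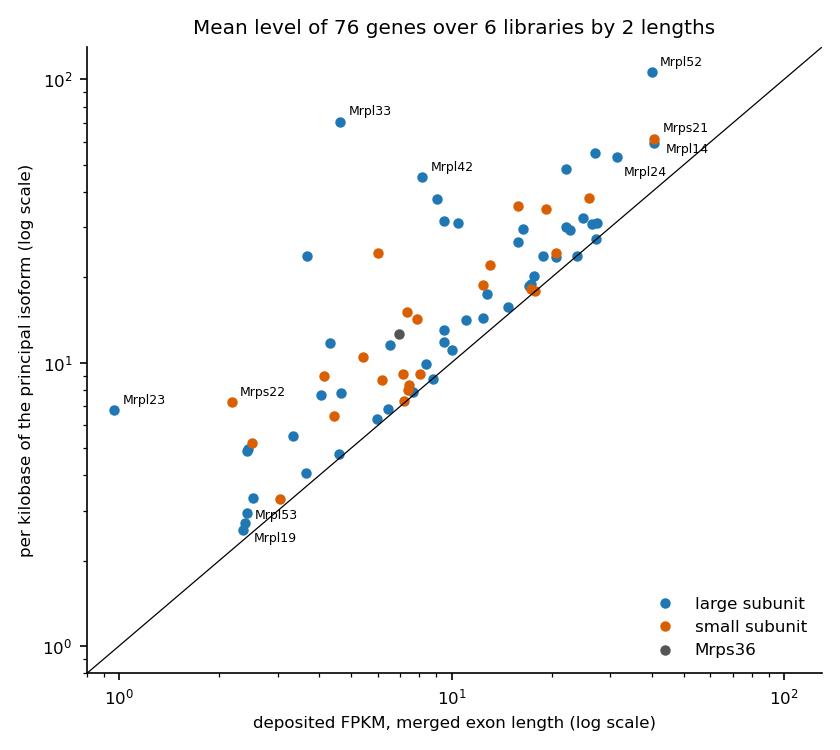
Each point is a gene, with its mean deposited FPKM over 6 libraries on the x axis and the same reads per kilobase of the principal isoform on the y axis, both on log scales. The line marks equal values, and Mrpl33 (4.63 against 70.9) lies farthest above it.

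Mrps10 and Mrps23, both of the small subunit, were too low to be tested. Mrps10 had counts of 1, 0 and 2 in CS and 0, 1 and 0 with SS-31, and Mrps23 had 4, 9 and 1 in CS and 8, 10 and 6 with SS-31. A count of 3 corresponded to 0.172 to 0.185 CPM. Neither gene shares exonic bases with another annotated gene, and the annotation release the authors counted with is not given in the sources used here, so whether these low values reflect the lung or the counting was not tested. Overlap touched other members as well. At least 10% of exonic bases lay under another gene for 18 of the 78 genes, with the highest share in Mrpl53 (88.0%, mostly the same-strand gene Gm42688). Large-subunit genes named above are among them, with an opposite-strand gene over 36% of Mrpl19 (Gcfc2) and 26.3% of Mrpl24 (Rrnad1). The share was 14.1% in Mrpl10 (Gm11574), 13.1% in Mrpl12 (Gm16755), 11.2% in Mrpl14 (Tmem63b) and 10.1% in Mrpl18 (Tcp1). Reads in these stretches cannot be told apart either.

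The remaining parts of the mitoribosome did not pass the test. The ribosomal proteins that carry other symbols, Dap3, Ptcd3, Aurkaip1, Chchd1 and Gadd45gip1, had log2 fold changes of 0.11, -0.02, 0.08, 0.06 and -0.01. The small-subunit ribosomal RNA gene of mitochondrial DNA, mt-Rnr1, was at 147, 133 and 115 CPM in CS and at 139, 202 and 173 CPM with SS-31. The difference on the log2 scale was 0.38, with an SE of 0.16 and an adjusted p of 0.265 by edgeR's quasi-likelihood test. For mt-Rnr2, which encodes the large-subunit ribosomal RNA, the difference was 0.19 (SE 0.18). The groups overlapped for both. Together the 2 ribosomal RNA genes summed to 372 to 471 CPM in CS and 385 to 548 CPM with SS-31. The messengers of mitochondrial DNA summed to 12846 to 14164 CPM and 14284 to 21391 CPM. How far the library preparation kept ribosomal RNA was not tested, so these values need not be the ribosomal RNA levels of the tissue.

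The other genes of mitochondrial translation lay near 0 too. Of 26 tested genes for mitoribosome assembly and ribosomal RNA processing, 0 passed and the median was -0.01. Of 13 translation factor genes 0 passed, with Guf1, the mitochondrial LepA homologue, at 0.31 (SE 0.13) and Mrrf, the ribosome recycling factor, at -0.25 (SE 0.11) at an unadjusted p under 0.05. Of 17 aminoacyl-tRNA synthetase genes 0 passed, with a median of -0.01, and of 12 genes for mitochondrial transcription and DNA replication 0 passed, with a median of 0.07. Polrmt, the mitochondrial RNA polymerase, was at 38.8, 35.5 and 41.4 CPM in CS and 37.4, 28.4 and 30.0 CPM with SS-31 (-0.27, SE 0.13), and Tfam, which packages mitochondrial DNA, gave 0.13 (SE 0.11).

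Among the factors whose letters were searched in the promoters, Nrf1 gave -0.14 (SE 0.10) and Gabpa 0.07 (SE 0.13). The value of Yy1 is not given here. The coactivator Ppargc1a gave 0.34 (SE 0.24) at 2.69 to 4.41 CPM. Among 10 regulator genes, Pprc1, a coactivator related to Ppargc1a, was the 1 at an unadjusted p under 0.05. It was at 42.1, 48.9 and 59.7 CPM in CS and 27.7, 32.4 and 38.6 CPM with SS-31, with no overlap, a log2 fold change of -0.61 (SE 0.17) and an adjusted p of 0.141 by edgeR's quasi-likelihood test.

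Cytosolic ribosomal protein genes had higher values than the mitoribosomal ones. None of 87 passed, but 78 had a positive fold change, 20 were higher and 0 lower at an unadjusted p under 0.05, and the median was 0.21. The 13 messengers of mitochondrial DNA, which the mitoribosome translates, had 11 tested genes, all with a positive fold change and a median of 0.28, but 0 at an unadjusted p under 0.05. Their summed level was 14164, 12846 and 14077 CPM in CS and 14284, 15063 and 21391 CPM with SS-31. SS-31H_CS replicate 1 was close to the CS libraries, and replicate 3 was far above the rest. Complex I genes had a median of 0.05 over 36. No difference between these lists and the mitoribosomal genes was tested.

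**Figure D5:**
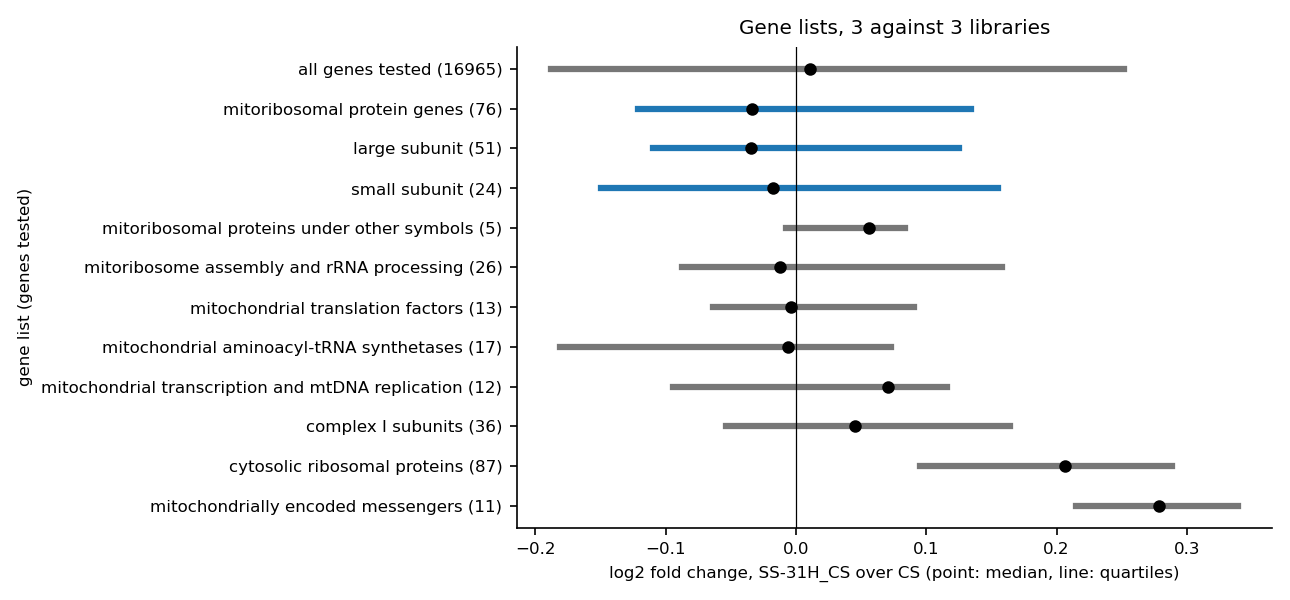
For each gene list (y axis, with the number of genes tested) the point is the median log2 fold change, SS-31H_CS over CS, and the line joins the quartiles (x axis). Mitoribosomal genes centre on -0.03, cytosolic ribosomal protein genes on 0.21 and mitochondrially encoded messengers on 0.28.

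Values of cell type markers are given here beside those of the mitoribosomal genes. The tissue was checked by Sftpc, the surfactant protein C gene of alveolar type 2 cells, which stood at 11541 to 16103 CPM in the 6 libraries. Of 16 tested ciliated cell markers 0 passed the test, but all had a positive fold change (median 1.08), their summed level being 477 to 653 CPM in CS and 895 to 1379 CPM with SS-31. Of 15 alveolar macrophage markers 14 were negative (median -0.26), at 2148 to 2507 CPM in CS and 1105 to 1517 CPM with SS-31, and Lpl, which encodes lipoprotein lipase, fell (-1.19, adjusted p = 0.009 by edgeR's quasi-likelihood test). Of 11 club cell markers Scgb3a2, a secretoglobin, rose (1.44, adjusted p = 0.0467 by the same test). The part of these cell types in the values of the mitoribosomal genes was not tested.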

How the data were processed

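RNA of mouse lung was sequenced in 6 libraries with Illumina protocols, per the labels' protocols. The authors deposited unnormalized counts for each Ensembl gene and, for the same libraries, FPKM (fragments scaled by gene length and library total). The submitters' processing notes name cutadapt 1.9.1, HISAT2 2.0.1, HTSeq 0.6.1 and GRCm38; the annotation release and strand setting are not given in the sources used here. Totals ran from 15611925 to 17360052 counts.

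Symbols, coordinates, exon lengths and principal isoforms came from GENCODE M21 (55480 genes matched, 93 not). Counts were tested with edgeR 4.0.16 in R 4.3.3 (quasi-likelihood, TMM, minimum count 10, minimum total 15, Benjamini-Hochberg over all genes tested, two-sided, threshold 0.05), group alone in the model. Standard errors and 95% intervals are from that fit. The fit was also run on counts simulated from its own means and dispersions. These held no shift shared by the genes of a library, so they could not show how such a shift acts on the results.

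Members and gene lists were chosen with earlier results of these data known. Complex I and cytosolic ribosomal protein genes were taken by symbol pattern, without a check that each product is a subunit. The patterns also take in Ndufa4, Ndufa4l2, Rps19bp1 and Rpl10-ps3. Named members are the 6 with the lowest p and the 4 with the largest fold change in each direction, the 4 highest and 4 lowest in mean FPKM, the 3 with the largest and 3 with the smallest spread, those not tested, and 11 fixed for their roles; 12 related genes, and list genes past the threshold, are named too. Others were named after their values were seen. Alternatives were RLE factors, library size alone, other low-count filters, robust dispersion, DESeq2 1.42.0, limma 3.58.1 (voom, and trend on log2(FPKM + 1) and log2(FPKM + 0.1)), a replicate block, leaving out each library and, added after seeing the data, principal isoform length.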

Additional observations from a re-analysis of the deposited data

How the results depend on the processing

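The count of mitoribosomal protein genes past the threshold was 0 under all 16 alternatives, with a lowest adjusted p of 0.116 (Mrps18b by DESeq2, where its adjusted p ranged up to 0.384 over the alternatives). At an unadjusted p under 0.05 the count was 6, 7 with library size alone and in both FPKM fits, 4 with the replicate block, and 3 to 5 with 1 library left out, lowest without SS-31H_CS replicate 1. Their median log2 fold change of -0.03 was 0.02 with library size alone, 0.03 in both FPKM fits and -0.078 to 0.064 with 1 library left out, the highest without CS replicate 3. Over all genes the count of 26 became 12 with library size alone, 648 without a low-count filter, 0 with the replicate block, 948 by DESeq2, 6 by limma voom, 6 and 5 in the limma fits of log2(FPKM + 1) and log2(FPKM + 0.1), and 1 to 15 with 1 library left out; the cause was not tested. The replicate block changed no call among the mitoribosomal genes. Same-numbered libraries share only a number: their deviations from the group means correlated at 0.00721, 0.0363 and -0.0571 over 16965 genes, and not every library correlated best with its own number. The median FPKM of SS-31H_CS replicate 2, 9.00 over the 78 genes, was 8.58 after rescaling with TMM factors. Among the named genes, the sign turned in those that follow. With library size alone, log2(FPKM + 1) and log2(FPKM + 0.1), Mrpl54 gave 0.0066, 0.029 and 0.031, Mrpl11 0.056, 0.046 and 0.053, Ptcd3 0.032, 0.026 and 0.032, and Gadd45gip1 0.048, 0.042 and 0.046. Mrpl11 gave 0.0012 with the 1 CPM filter. With 1 library left out the fold changes ran from -0.29 to 0.015 for Mrpl23, -0.23 to 0.18 for Mrpl54, -0.15 to 0.020 for Mrpl12, -0.054 to 0.048 for Mrpl11, -0.020 to 0.20 for Mrps12, -0.25 to 0.061 for Mrps34, -0.088 to 0.031 for Ptcd3, -0.11 to 0.21 for Chchd1, -0.062 to 0.035 for Gadd45gip1, and -0.016 to 0.15 for Gabpa. Without turning sign, other values moved by over 1.5 times. Mrpl55 was -0.17 and mt-Rnr1 0.24 without SS-31H_CS replicate 2, Mrps25 -0.13 and Mrps7 -0.062 without CS replicate 3, Mrps30 0.073 without CS replicate 2, Mrpl24 0.099 and Polrmt -0.41 without SS-31H_CS replicate 1, and mt-Rnr2 0.052, Dap3 0.026 and Ppargc1a 0.17 without SS-31H_CS replicate 3. None of these genes had passed the test. A group left with 2 libraries is assumed to vary like the other. Counts were too few to test for Mrps10 and Mrps23, and limited the precision of Mrpl53, at 27 to 36 counts in a library (SE 0.27).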
